A study of Mus musculus with 463 samples.

Results

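Liver bud cells of E10.5 mouse embryos were set against cells of the ventral Pdx1-expressing region of the same stage that had been sorted as Pdx1-GFP-low and Liv2+, here called Liv2+ cells. Every single cell carrying either label was taken, which gave 23 liver bud cells (12 in set 1 and 11 in set 2) and 54 Liv2+ cells (37 in set 1 and 17 in set 2), together 77 of the 447 single cells of the series. The liver bud cells were themselves sorted for Liv2, so both groups share that gate. The Pdx1-GFP transgene served to sort the ventral cells, and the labels record no Pdx1-GFP gate for the liver bud. Groups set beside these for single values were the Liv2- cells of the same region (59 cells, Pdx1-GFP-low), ventral Pdx1-high cells (39 cells) and 4 cells of E15.5 liver sorted as Pdx1-Cre, ROSA26-tdTomato+, a design in which Cre activity from Pdx1 leaves a lasting red label. No mouse strain, treatment, sex or promoter fragment of the transgene is given in the labels. Each cell was sequenced by Smart-seq2, a full-length method without molecular identifiers, within a study of ventral and dorsal pancreas programs. A set is a numbered group of cells, and whether sets differ by embryo, litter, sorting run or plate is not recorded in the labels. The p-values therefore rest on set-to-set spread alone, part or all of which may be technical. In the test over all sets that spread came from 37 sets of 11 groups, most of them outside the 2 groups compared. That fit had 26 residual degrees of freedom, against 2 for a fit of the 4 sets compared.

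The liver and the ventral pancreas arise next to each other from the ventral foregut endoderm, and the extrahepatic bile duct arises between them from cells that make the transcription factor Sox17. Hepatoblasts, the progenitors of hepatocytes and bile duct cells, leave the epithelial layer as cords and begin to make plasma proteins such as alpha-fetoprotein (Afp) and albumin (Alb). Liv2 is an antibody to a surface antigen of mouse hepatoblasts. Grhl2 is a grainyhead transcription factor that maintains epithelial junction genes, and Lnx1 is a ubiquitin ligase known for targeting the cell fate protein Numb. The comparison shows which genes and which cells separate the liver bud from ventral cells that carry the same surface mark.

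The promoter of Rab25, an epithelial gene that was low in the liver bud, is shown because it holds a grainyhead motif. Most promoters of the epithelial genes lacked this motif, as counted below. The Rab25 promoter is therefore an example of a match and is not typical of these genes. It comes from RefSeq for build GRCm38.p6, runs from 250 bases upstream to 50 bases downstream of the annotated start, and is written on the gene's own strand. Capitals mark a match, on either strand, to AACCNGTT, a grainyhead site. The window is chr3:88548230-88548529 (minus strand).
Rab25: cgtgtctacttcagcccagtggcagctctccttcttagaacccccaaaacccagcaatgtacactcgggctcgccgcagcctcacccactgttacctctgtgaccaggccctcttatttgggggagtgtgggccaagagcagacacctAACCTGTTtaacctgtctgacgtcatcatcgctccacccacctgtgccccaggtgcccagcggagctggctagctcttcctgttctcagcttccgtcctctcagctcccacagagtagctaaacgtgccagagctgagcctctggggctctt
AACCNGTT occurred in 4 of 51 promoters of the epithelial genes described below (7.84%), in 4 of 109 promoters of all genes called lower in the liver bud (3.67%), in 0 of 43 promoters of plasma protein genes and in 686 of all 32851 promoters (2.09%). A match is a description of the letters in the window and not evidence of binding.

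Depth per cell was similar in both groups. The liver bud sets held 13145942 and 15218042 reads on genes, and the Liv2+ sets 38250232 and 24226000. Single liver bud cells had 934128 to 1506322 reads and a median of 9909 detected genes, and single Liv2+ cells had 727201 to 1593974 reads and a median of 10029. Counts are given as CPM (reads scaled to a common library total), adjusted by the trimmed mean of M values (TMM) for sets and by the plain total for single cells. A gene was called detected in a cell at 2 or more reads after the cell was thinned to 200000 reads, which is 10 CPM. Intervals for shares are exact 95% binomial intervals and cover counting error only.

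A model of 37 of the 41 sets of the series, here called all sets, tested 17433 genes. Of these genes, 102 (0.585%) differed between liver bud and Liv2+ cells at an adjusted p under 0.05 (edgeR quasi-likelihood test, Benjamini-Hochberg adjustment). Only 3 of these were higher in the liver bud (0.0172%), while 99 were lower (0.568%). The fold changes below are log2 values of liver bud over Liv2+ cells, with a median over all genes of -0.07. A fit of the 4 sets of these 2 groups alone, with 2 residual degrees of freedom, called 587 of 13968 genes (4.2%), of which 271 were higher (1.94%) and 316 lower (2.26%). DESeq2, on all 37 sets, called 463 genes (2.66%), of which 40 were higher (0.229%) and 423 lower (2.43%), and 1274 genes (7.31%) had an unadjusted p under 0.05 by edgeR. The 3 fits thus gave different numbers of calls, and for each list below the counts of DESeq2 and of the fit of the 4 sets stand beside that of edgeR over all sets. The shares over all genes given here are the rates to set those list counts against. For the unadjusted p that share covers both directions. On simulated data DESeq2 made 72 false and 43 correct calls. Those data had 1 mean per gene in all groups, apart from changes of 2-fold or 4-fold in the liver bud sets. The real groups differ more, so the share of false calls among the real DESeq2 calls is not known from this. Calls by DESeq2 without edgeR are given as descriptions. Unless another fit is named, fell and rose refer to edgeR's test over all sets.

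**Figure D1:**
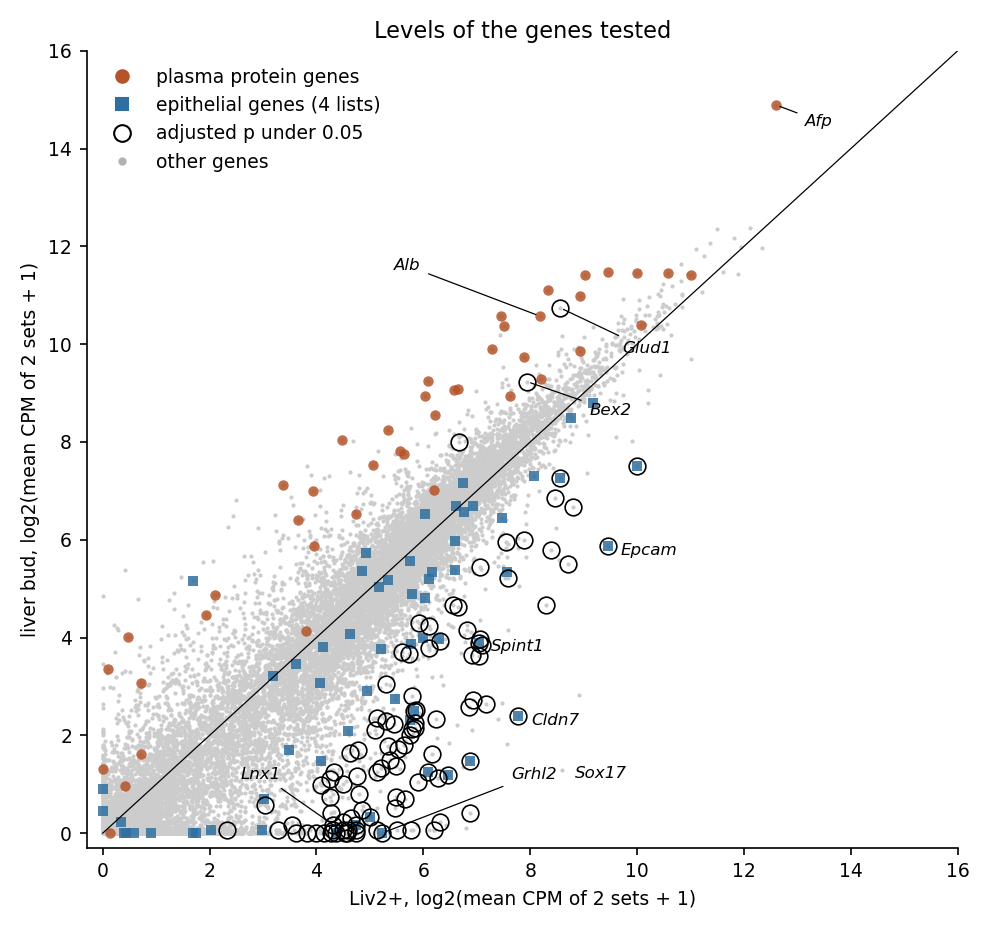
Level of each tested gene in liver bud cells (vertical axis) and in Liv2+ cells (horizontal axis), as log2 of the mean CPM of 2 sets plus 1. Plasma protein genes (red) mostly lie above the diagonal of equal levels and epithelial genes (blue squares) below it, and 99 of the 102 genes with an adjusted p under 0.05 (circles) lie below.

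Plasma protein genes stood higher in the liver bud, though none passed the test across all groups. Afp was at 25343 and 35471 CPM in the 2 liver bud sets, against 5515 and 6885 CPM in the 2 Liv2+ sets. Its log2 fold change was 2.29 (SE 1.25, adjusted p = 0.728), while the fit of the 4 sets alone gave an adjusted p of 0.00967. Alb was at 912 and 2137 CPM in liver bud sets, against 341 and 236 CPM in Liv2+ sets (log2 fold change 2.40, SE 2.18, adjusted p = 0.95, and 0.0394 in the fit of the 4 sets). For both genes the sets of the 2 groups did not overlap, and the liver bud sets also lay apart from each other, most of all for Alb.

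The other plasma protein genes had the same direction. Of 44 listed genes 43 were tested (Fetub, with 0 reads in both groups, was not), and 42 had a positive fold change, with a median of 2.39. The sets did not overlap for 41 of the 43, all of them higher in the liver bud, beside 20.7% of all genes. By edgeR's quasi-likelihood test 0 of the 43 passed and 6 had an unadjusted p under 0.05, all higher, DESeq2 called 1, and the fit of the 4 sets called 29 of 42. Serpinf2, which encodes the plasmin inhibitor alpha-2-antiplasmin, had the smallest p of the list, with 2643 and 3011 CPM in liver bud and 769 and 626 CPM in Liv2+ sets (log2 fold change 2.02, SE 0.59, adjusted p = 0.161, with 0.0371 by DESeq2 and 0.00648 in the fit of the 4 sets). Apob, the scaffold protein of very low density lipoprotein, was at 250 and 273 CPM in liver bud and 22 and 20.6 CPM in Liv2+ sets (adjusted p = 0.835, and 0.00361 in the fit of the 4 sets). The list was not uniform. Ttr, which carries thyroid hormone, was at 1294 and 1380 CPM in liver bud and 1004 and 1158 CPM in Liv2+ sets, and Ambp, the precursor of alpha-1-microglobulin, at 2632 and 2812 against 1992 and 2131 CPM, differences that passed neither fit (adjusted p of 0.166 or more).

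Single cells separated what the sums of sets blend. Afp was detected in 23 of 23 liver bud and 54 of 54 Liv2+ cells, but its median was 26676 CPM (range 4274 to 45358) in liver bud and 2158 CPM (68.0 to 38888) in Liv2+ cells. Alb was detected in 23 of 23 liver bud cells (interval 85.2 to 100%) and in 26 of 54 Liv2+ cells (48.1%, 34.3 to 62.2%), that is in 20 of 37 and 6 of 17 by set. Its median was 1108 CPM (352 to 6213) in liver bud and 9.20 CPM (0 to 2460) in Liv2+ cells. The Liv2- cells of the same region shared much of this, with Alb detected in 20 of 59 (33.9%, 22.1 to 47.4%) and Afp in 58 of 59. Alb was detected in 2 of 39 ventral Pdx1-high cells (5.13%), a pancreatic group set beside these as a background. In 16 of 54 Liv2+ cells Afp, and in 12 of 54 Alb, was at or above the lowest liver bud cell. Liver bud cells thus formed 1 range for Alb, and Liv2+ cells spread from 0 into that range.

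**Figure D2:**
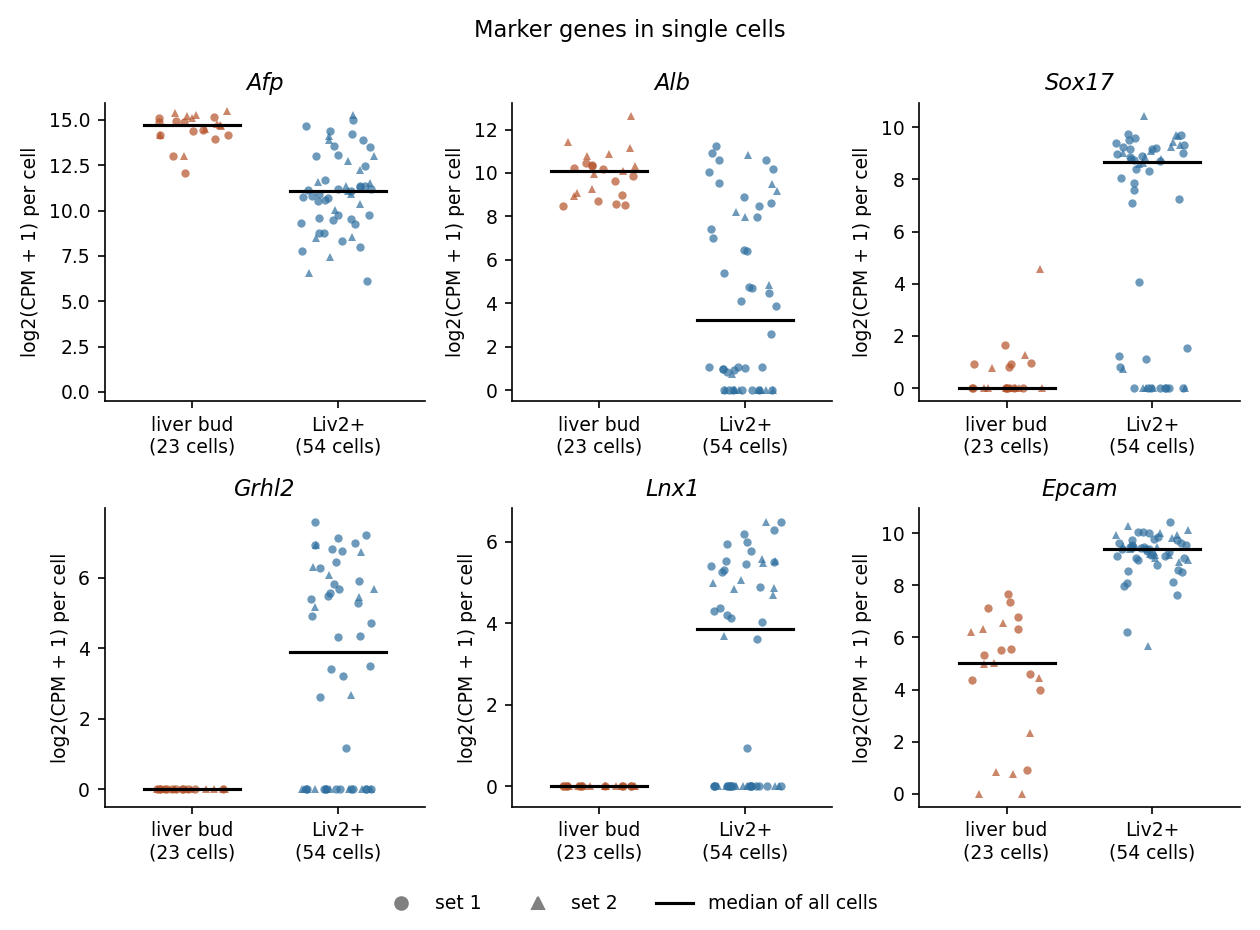
Level of 6 genes in each of 23 liver bud and 54 Liv2+ cells, as log2 of CPM plus 1, with circles for set 1, triangles for set 2 and a line at the median. Alb lies between 352 and 6213 CPM in liver bud cells and between 0 and 2460 CPM in Liv2+ cells, and Grhl2 and Lnx1 are at 0 in every liver bud cell.

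Among hepatic transcription factors, 0 of 24 tested passed edgeR's test (3 had an unadjusted p under 0.05), 12 had a positive fold change and the median was 0.24. DESeq2 called 2 lower and 0 higher, and the fit of the 4 sets called 2 of 23 in each direction. Prox1, which drives hepatoblast migration, was at 448 and 409 CPM in liver bud and 219 and 206 CPM in Liv2+ sets (log2 fold change 1.01, SE 0.37, adjusted p = 0.392, and 0.0303 in the fit of the 4 sets). Tbx3, a repressor that acts in hepatoblast expansion, was at 240 and 181 CPM in liver bud and 98.8 and 80.1 CPM in Liv2+ sets (adjusted p of 1 and 0.044). The 2 factors that the fit of the 4 sets called lower were Onecut1, at 24.1 and 25.0 against 88.0 and 77.9 CPM, and Zbtb20, a repressor of Afp in the adult mouse liver, at 9.90 and 8.25 against 47.4 and 47.1 CPM. Hhex, which is required for liver bud outgrowth, was detected in every cell of both groups, with 337 and 232 CPM in liver bud and 414 and 466 CPM in Liv2+ sets (log2 fold change -0.63, SE 1.41, adjusted p = 1). The factors thus split in direction, unlike the plasma protein genes.

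The 3 genes that were higher in the liver bud were Glud1, Uqcrq and Bex2. Glud1 encodes mitochondrial glutamate dehydrogenase and lies on chromosome 14 (34310727 to 34345265, GRCm38). It was at 1265 and 2169 CPM in liver bud sets, against 396 and 353 CPM in Liv2+ sets, a change of 2.20 on the log2 scale (SE 0.46, adjusted p = 0.0134). The call held without liver bud set 1 (0.0171) and was lost without liver bud set 2 (0.649), Liv2+ set 1 (0.184) or Liv2+ set 2 (0.249). In single cells Glud1 ranged from 810 to 2462 CPM in the liver bud, and had a median of 246 CPM (0 to 1755) in Liv2+ cells. Uqcrq, a subunit of respiratory complex III, was at 236 and 276 CPM in liver bud and 90.8 and 111 CPM in Liv2+ sets (log2 fold change 1.34, SE 0.32, adjusted p = 0.0378). Bex2, a small brain-expressed X-linked protein, was at 579 and 624 CPM in liver bud and 245 and 243 CPM in Liv2+ sets (1.30, SE 0.29, adjusted p = 0.0185). Uqcrq and Bex2 lost the call when any 1 of the 4 sets was left out (adjusted p of 0.112 to 0.758 and 0.0867 to 0.320). Hepatocyte metabolism genes pointed the same way without passing the test. Of 24 tested, 0 passed, 2 had an unadjusted p under 0.05, 17 had a positive fold change and the median was 1.43, while DESeq2 called 0 and the fit of the 4 sets called 6 of 19. Mttp, which loads lipid onto apolipoprotein B, was at 540 and 714 CPM in liver bud and 181 and 192 CPM in Liv2+ sets (adjusted p = 0.527, and 0.0129 in the fit of the 4 sets). Asl of the urea cycle was at 186 and 197 against 68.5 and 72.6 CPM (adjusted p of 0.576 and 0.0169).

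Grhl2 and Lnx1 had no read in any liver bud cell. Grhl2 lies on chromosome 15 (37233036 to 37363569) and Lnx1 on chromosome 5 (74592447 to 74702912). Grhl2 was at 0 and 0 CPM in liver bud sets, against 42.8 and 29.9 CPM in Liv2+ sets (adjusted p = 0.0141). A floor of 3 reads over the liver bud puts Grhl2 300.3-fold lower. Such a figure covers counting error of reads only, not spread between cells or sets, so it is no lower bound on the difference. Lnx1 was at 0 and 0 CPM in liver bud sets, against 21.9 and 22.6 CPM in Liv2+ sets (adjusted p = 7.01e-05). By the same floor Lnx1 was 184-fold lower. Lnx1 stayed called when any 1 set was left out (adjusted p up to 0.0142), whereas Grhl2 was not called without liver bud set 1 (0.230) or set 2 (0.437). By cells, Grhl2 was detected in 0 of 23 liver bud cells (0 to 14.8% by the exact interval, and up to 13.0% by the limit of 3 counts that a count of 0 allows) and in 31 of 54 Liv2+ cells (57.4%, 43.2 to 70.8%). Lnx1 was detected in 0 of 23 liver bud cells, with the same limits, and in 28 of 54 Liv2+ cells (51.9%, 37.8 to 65.7%). Both were therefore detected in part of the Liv2+ cells, and 19 cells held both, 12 Grhl2 without Lnx1, 9 Lnx1 without Grhl2 and 14 neither. The Liv2- cells of the same region were like the Liv2+ cells in these shares, with Grhl2 in 36 of 59 and Lnx1 in 26 of 59. Lnx1 overlaps the gene Fip1l1 by 6354 bases, and whether the counting used strand is not given in the sources used here. Its relative Lnx2 was at 30.4 and 65.0 CPM in liver bud and 34.6 and 25.2 CPM in Liv2+ sets, and Numb at 65.1 and 43.8 against 56.4 and 42.9 CPM (adjusted p of 1 for each, with sets that overlapped).

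Among the 99 genes that fell were 13 epithelial genes, and 18 of the 99 belonged to any list described here. The 13 came from 62 tested genes in 4 lists (grainyhead and other regulators, junctions, trafficking and proteases, keratins), so 21% of these fell, beside 0.568% of all genes, and 0 rose. Of the 62, 46 had sets that did not overlap and were lower, beside 28.2% of all genes. The lists were drawn up with earlier results of these data known, so their count is a description. Of 12 regulators Grhl2 and Esrp1 fell, with a list median of -5.10. The size of this median is uncertain, since 5 of the 12 had no liver bud reads and a Liv2+ cell held a median of 4. DESeq2 called 4 of the 12 lower and 1 higher (Ovol1, at 0.755 and 0 CPM in liver bud and 0 CPM in both Liv2+ sets), and the fit of the 4 sets called 3 of 7 lower. Esrp1, which directs epithelial splicing, was at 2.68 and 0.0778 CPM in liver bud and 62.4 and 71.4 CPM in Liv2+ sets, log2 change -5.60 (SE 0.90, adjusted p = 0.000457). Its relative Esrp2 was at 90.2 and 92.5 CPM in liver bud and 68.4 and 60.2 CPM in Liv2+ sets (log2 fold change 0.51, SE 1.14, adjusted p = 1). Esrp1 held its call when any 1 set was left out (adjusted p up to 0.0401), and it was detected in 1 of 23 liver bud and 47 of 54 Liv2+ cells.

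Of 29 junction genes 6 fell (Epcam, Cldn3, Cldn4, Cldn6, Cldn7 and Marveld3) and the list median was -0.94. DESeq2 called 8 lower and 0 higher, and the fit of the 4 sets called 7 lower and 1 higher (Cldn1) of 28. Epcam, a surface adhesion protein of epithelia, was at 77.5 and 37.1 CPM in liver bud and 658 and 738 CPM in Liv2+ sets, log2 change -3.61 (SE 0.54, adjusted p = 0.000165). It was detected in 17 of 23 liver bud cells (11 of 12 and 6 of 11 by set) and in 54 of 54 Liv2+ cells, so it was lower in the liver bud rather than at 0. Cldn4, a tight junction claudin, was at 5.03 and 4.28 CPM in liver bud and 56.5 and 55.2 CPM in Liv2+ sets (log2 fold change -3.58, SE 0.54, adjusted p = 0.000165). Both calls held when any 1 set was left out (adjusted p up to 0.0442 for Epcam and 0.0322 for Cldn4). Cldn7 was at 7.55 and 0.934 CPM in liver bud and 207 and 231 CPM in Liv2+ sets (log2 fold change -5.69, SE 1.09, adjusted p = 0.00495, but 0.320 without liver bud set 2). The claudin Cldn6 was at 289 and 71.2 against 998 and 1044 CPM (adjusted p = 0.0448, but 0.0730 in the fit of the 4 sets). Cldn6 kept its call without liver bud set 1 (0.0144) and lost it without liver bud set 2 (1), Liv2+ set 1 (0.174) or Liv2+ set 2 (0.210). Cldn3, with 3 reads in the liver bud (ratio 210, counting interval 71.8 to 1021), lost its call when any 1 set was left out (0.0641 to 0.625). Marveld3 had 0 reads in the liver bud and 23.3 and 16.0 CPM in Liv2+ sets (adjusted p = 0.00332). By the floor of 3 reads Marveld3 was 162-fold lower, and it lost its call without liver bud set 1 or set 2. Cdh1, or E-cadherin, was at 46.0 and 33.6 CPM in liver bud and 201 and 174 CPM in Liv2+ sets but missed the threshold (log2 fold change -2.24, SE 0.60, adjusted p = 0.0995, with 0.00382 by DESeq2 and 0.012 in the fit of the 4 sets). Cdh2, or N-cadherin, was at 283 and 287 against 79.2 and 67.2 CPM (1.96, SE 0.80, adjusted p = 0.525, and 0.0088 in the fit of the 4 sets). Cldn1 also went the other way, at 38.2 and 31.7 against 1.03 and 3.40 CPM (adjusted p = 0.8, and 0.0389 in the fit of the 4 sets).

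Of 15 trafficking and protease genes 5 fell (Rab25, Ap1m2, Spint1, Spint2 and St14), with a median of -2.41, while DESeq2 called 6 and the fit of the 4 sets 7, all lower. Ap1m2, the epithelial subunit of the AP-1 sorting adaptor, was at 3.36 and 0.233 CPM in liver bud and 103 and 131 CPM in Liv2+ sets (log2 fold change -6.02, SE 0.79, adjusted p = 3.96e-05), and it was detected in 1 of 23 liver bud and 51 of 54 Liv2+ cells. Spint1, an inhibitor of the membrane protease matriptase, was at 16.2 and 11.6 CPM in liver bud and 140 and 121 CPM in Liv2+ sets (log2 fold change -3.23, SE 0.40, adjusted p = 2.18e-05). Both held when any 1 set was left out, with adjusted p up to 0.00541 for Ap1m2 and 0.00567 for Spint1. St14, which encodes matriptase, was at 2.43 and 0.156 against 97.3 and 77.3 CPM (adjusted p = 0.0181), and its adjusted p was above the threshold without liver bud set 1 (0.0535) or set 2 (0.649) and without Liv2+ set 1 (0.0641). Rab25, a recycling endosome GTPase whose promoter is printed above, was at 0.503 and 0 against 26.9 and 35.0 CPM (log2 fold change -6.91, SE 1.26, adjusted p = 0.00244, but 0.206 without liver bud set 2). Spint2, at 177 and 128 against 372 and 380 CPM, passed narrowly (log2 fold change -1.30, adjusted p = 0.0483) and lost its call when any 1 set was left out (0.160 to 1). Of 6 keratins 0 passed edgeR's test, 2 had an unadjusted p under 0.05 and DESeq2 and the fit of the 4 sets called 1 each. The simple epithelial keratin Krt8 was at 397 and 492 CPM in liver bud and 591 and 561 CPM in Liv2+ sets (log2 fold change -0.37, SE 0.38, adjusted p = 0.983), and Krt7 at 6.63 and 4.82 against 32.7 and 54.4 CPM (-2.93, SE 0.83, adjusted p = 0.128, with 0.00888 by DESeq2 and 0.0288 in the fit of the 4 sets).

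**Figure D3:**
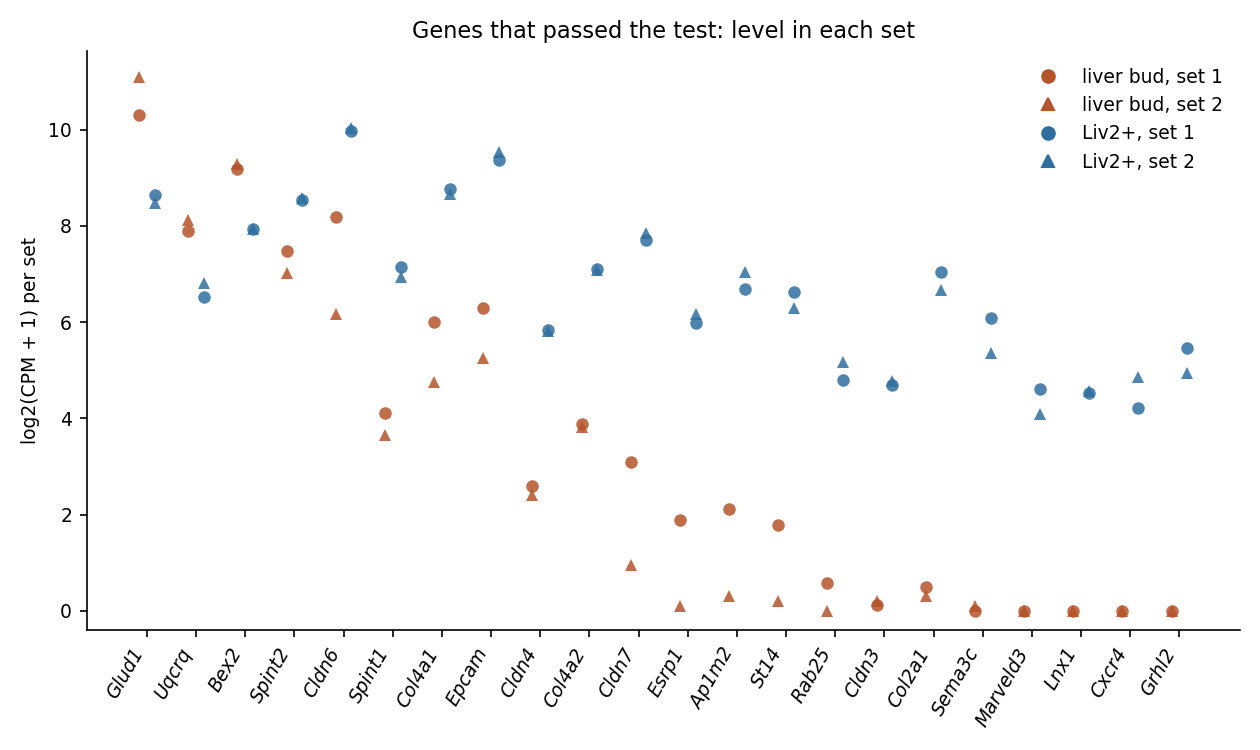
Level of 22 genes that passed the test in each of the 4 sets, as log2 of CPM plus 1 (red, liver bud; blue, Liv2+; circles set 1, triangles set 2). The genes were picked for passing the test, and the sets of the 2 groups do not overlap for any of them. Over all genes tested the sets do not overlap for 20.7% (higher in the liver bud) and 28.2% (lower). The 2 liver bud sets lie apart for Cldn6, at 289 and 71.2 CPM.

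Of 15 tested basement membrane and matrix genes, 4 fell (Lamb1, Col4a1, Col4a2 and Itga6), beside 0.568% of all genes, and 11 did not pass. The median was -1.10, 2 of the 15 had a positive fold change, DESeq2 called 6 lower and 0 higher, and the fit of the 4 sets called 7 lower and 0 higher. Each of the 4 calls was lost without at least 1 of the sets. Col4a1, a chain of basement membrane collagen, was at 63.1 and 26.1 CPM in liver bud and 433 and 404 CPM in Liv2+ sets (log2 fold change -3.23, adjusted p = 0.00312, but 0.320 without liver bud set 2). Col4a2, its partner chain, was at 13.7 and 13.1 against 136 and 135 CPM (-3.34, adjusted p = 0.0012, but 0.0535 and 0.106 without liver bud set 1 and set 2). The 2 genes overlap by 22 bases. Lamb1, a laminin chain, was at 46.3 and 26.1 against 193 and 189 CPM (adjusted p = 0.048), and Itga6, part of a laminin receptor, at 7.46 and 4.59 against 65.4 and 42.6 CPM (adjusted p = 0.0369). Lamb1 and Itga6 lost their calls when any 1 set was left out (adjusted p of 0.182 to 1 and 0.0617 to 0.873). The calls of Sema3c and Col2a1, in neither case with more than a few liver bud reads, held when any 1 set was left out. Sema3c, a secreted guidance factor, had 1 read in the liver bud and 67.2 and 39.7 CPM in Liv2+ sets (ratio 1404, counting interval 252 to 55453, adjusted p = 8.86e-05, up to 0.0142 without 1 set). Col2a1, a fibrillar collagen, was at 0.419 and 0.233 CPM in liver bud and 131 and 101 CPM in Liv2+ sets (log2 fold change -8.43, SE 1.26, adjusted p = 0.000165, up to 0.0439 without 1 set) and was detected in 0 of 23 liver bud and 44 of 54 Liv2+ cells. Cxcr4, the chemokine receptor of early endoderm, had 0 reads in the liver bud and 17.6 and 27.9 CPM in Liv2+ sets (adjusted p = 0.0243). By the floor of 3 reads Cxcr4 was 188-fold lower. Cxcr4 lost its call without liver bud set 1 (0.335), liver bud set 2 (0.625) or Liv2+ set 2 (0.0714). Of the 102 called genes 21 were called whichever set was left out, all lower in the liver bud. Besides Lnx1, Esrp1, Epcam, Cldn4, Ap1m2, Spint1, Sema3c and Col2a1 they included Igfbp2, App and Ddr1, which were picked for mention after their values were seen. Igfbp2, a carrier of insulin-like growth factors, was at 29.9 and 18.6 CPM in liver bud and 308 and 320 CPM in Liv2+ sets (log2 fold change -3.69, adjusted p = 0.000159). App, the amyloid precursor protein, was at 3.86 and 0.7 against 50.4 and 39.3 CPM (adjusted p = 3.96e-05), and Ddr1, a collagen receptor kinase, at 0.671 and 2.33 against 38.1 and 33.8 CPM (adjusted p = 7.11e-05).

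Of the bile duct and pancreatic lists 1 gene fell, Cldn4, beside 0.568% of all genes, and the bile duct factor Sox17 missed the threshold. Sox17 was at 0.503 and 2.41 CPM in liver bud and 323 and 452 CPM in Liv2+ sets. Its log2 fold change of -8.04 (SE 2.00) missed the threshold by edgeR's test across all groups (adjusted p = 0.0653) and passed by DESeq2 (0.00472) and in the fit of the 4 sets (0.00617). Sox17 was detected in 2 of 23 liver bud cells, both of set 2, and in 37 of 54 Liv2+ cells (68.5%). Sox9, a factor of bile duct and pancreatic progenitors, was at 1.59 and 3.58 against 100 and 76.1 CPM (log2 fold change -5.08, SE 1.6, adjusted p = 0.242, with 0.00325 by DESeq2 and 0.00967 in the fit of the 4 sets). Of 15 biliary genes 1 fell (Cldn4, also a junction gene), 7 had an unadjusted p under 0.05, all lower, 13 had a negative fold change and the median was -2.23. DESeq2 called 6 lower and the fit of the 4 sets 5 of 12, and neither called any higher. Of 19 pancreatic progenitor genes 0 passed edgeR's test, 3 had an unadjusted p under 0.05, DESeq2 and the fit of the 4 sets called 2 each, all lower, and the median was -0.53, with 3 positive fold changes. Pdx1 itself was at 0 and 0.156 CPM in liver bud and 1.83 and 0.596 CPM in Liv2+ sets (adjusted p = 0.676), and it was detected in 0 of 23 liver bud and 4 of 54 Liv2+ cells. Pdx1 RNA was thus close to the limit of detection in both groups.

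Alb and Sox17 were mostly, but not only, detected in different Liv2+ cells. Alb without Sox17 was detected in 17 Liv2+ cells, both genes in 9, Sox17 without Alb in 28 and neither in 0 of 54. At a level of 100 CPM or more, 18 cells had Alb, 35 had Sox17, 0 had both and 1 had neither. In set 1 the 37 cells split into 12 with Alb, 8 with both and 17 with Sox17, and in set 2 the 17 cells into 5, 1 and 11, so both sets held each kind. Across the 54 cells Pearson's r on log2(CPM + 1) was -0.86 for Alb and Sox17 and 0.63 for Afp and Alb. This is a description of cells from 2 sets, without a test. Lnx1 and Cxcr4 were mostly in cells with Sox17: Lnx1 was detected in 2 of the 17 cells with Alb alone, 5 of the 9 with both and 21 of the 28 with Sox17 alone, and Cxcr4 in 1, 8 and 24. Grhl2 was spread more evenly, in 7 of 17, 7 of 9 and 17 of 28. The 17 Liv2+ cells with Alb alone came closest to the liver bud in plasma protein genes. Their medians were 11850 CPM for Afp, 1278 CPM for Fgb (the fibrinogen beta chain) and 749 CPM for Glud1, against 1185, 1.01 and 224 CPM in the cells with Sox17 alone. They still held epithelial genes that were rare in the liver bud. Epcam had a median of 31.1 CPM in liver bud cells and 525 CPM in these 17. Cldn7 was detected in 5 of 23 liver bud cells and 16 of these 17, Ap1m2 in 1 and 14, and Esrp1 in 1 and 11.

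Counted over whole lists, a liver bud cell held 31 to 39 of the 44 plasma protein genes (median 35) and 17 to 34 of the 62 epithelial genes (median 26). A Liv2+ cell held 9 to 37 plasma protein genes (median 18) and 24 to 47 epithelial genes (median 38). As many plasma protein genes as the lowest liver bud cell were found in 10 of 54 Liv2+ cells, and more epithelial genes than the highest liver bud cell in 45 of 54. Both ranges of the liver bud were met by 2 of 54. In the 4 E15.5 liver cells (Pdx1-Cre, ROSA26-tdTomato+), a single set and later stage, Alb was at 11175 to 14581 CPM, Grhl2, Lnx1, Epcam and Sox17 had 0 reads, and Cdh1 was at 19.6 to 90.8 CPM.

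Of 65 tested BMP, FGF, Wnt, Notch and Hedgehog genes 0 passed edgeR's test and 10 had an unadjusted p under 0.05, all lower. DESeq2 called 4 lower, and the fit of the 4 sets called 2 higher and 6 lower of 58. Over all genes the shares were 7.31% (unadjusted, either direction), 2.43% (DESeq2, lower), and 1.94% and 2.26% (4 sets, higher and lower). Lgr5, a Wnt target and receptor, was at 152 and 103 CPM in liver bud and 31.6 and 26.8 CPM in Liv2+ sets (adjusted p = 0.983, and 0.0201 in the fit of the 4 sets), and Notch3 at 7.21 and 10.1 against 40.5 and 35.7 CPM (0.699 and 0.0424). Of 32 S and G2M phase genes 0 passed any of the 3 tests and 0 had an unadjusted p under 0.05, with a median of -0.01. Top2a, which unwinds DNA in dividing cells, was at 684 and 443 CPM in liver bud and 609 and 626 CPM in Liv2+ sets, values that overlapped.

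Summed over each set, markers of other cell types were low in both groups, endothelial ones least so. Summed mesenchyme markers were at 16.4 and 9.49 CPM in liver bud and 27.6 and 32.3 CPM in Liv2+ sets, immune markers at 2.26 and 4.05 against 1.38 and 1.06 CPM, and erythroid markers at 2.60 and 6.53 against 10.45 and 19.1 CPM. Ptprc, Tyrobp, Emcn and Kdr had 0 reads in both groups, while Flt1 had reads in 2 of 23 liver bud and 33 of 54 Liv2+ cells. Up to 6 of 10 erythroid markers were detected in a single Liv2+ cell, against up to 1 in a liver bud cell. In Liv2+ cells 243 of 364 reads of the erythroid gene Hbb-y came from 1 cell, at 177 CPM. Endothelial markers summed to 76.4 and 99.3 CPM in liver bud and 98.7 and 153 CPM in Liv2+ sets. Few of the 10 listed were detected per cell, with a median of 1 (1 to 2) in liver bud and 2 (1 to 3) in Liv2+ cells. Of the 67 tested genes of these and 3 further lists (cardiac muscle, endocrine, gut) 0 passed edgeR's test, 7 had an unadjusted p under 0.05, DESeq2 called 3 and the fit of the 4 sets called 1. Endocrine genes differed between the 2 liver bud sets. They summed to 8.14 CPM in set 1 and 87.8 CPM in set 2, against 4.70 and 9.32 CPM in Liv2+ sets, of which Gcg was 0 and 81.0 CPM in the liver bud sets. All 11 cells of liver bud set 2 held Gcg reads (28.5 to 102 CPM) and 0 of the 12 cells of set 1 did. The source of these reads was not tested. For the called genes named above, whether the call held without liver bud set 2 is given beside each. Other called genes that lost their call without that set are not named.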

How the data were processed

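Single cells were sequenced by Smart-seq2 with the TruePrep DNA library kit, per the labels' protocols. Reads were aligned to GRCm38 (mm10) with TopHat2 2.1.0 and Bowtie2 and counted with HTSeq 0.6.0, per the submitters' processing notes. The strand setting of the counting, like the annotation release, was not given in the sources used here. Cell by cell, the deposited table holds read counts for 40824 genes and 92 spike-ins in 447 cells. It has no mitochondrial genes, and the spike-ins were left out of the totals. No 2 of the cells used here had identical counts, and no doublet caller was run. The deposited RPKM tables and bulk libraries were not used here.

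Counts were summed per numbered set. Of the 41 sets, 37 entered 1 model (26 residual degrees of freedom): those of 3 or more cells in the 11 groups with more than 1 such set. The model was fitted with edgeR 4.0.16: TMM scaling, filterByExpr, robust quasi-likelihood F test, and Benjamini-Hochberg adjustment over 17433 genes at 0.05. Standard errors are the absolute log2 fold change divided by the root of F. The fit was repeated with the 4 sets alone, with each set left out, with the set number as a block, on cells thinned to 200000 reads, by RLE scaling, unfiltered, against a threshold of 1.5-fold, and by DESeq2 1.42.0. Shares of cells were repeated at other detection limits. On simulated data with 16593 genes, of which 200 were changed, edgeR found 19% of 4-fold and 0% of 2-fold changes with 1 false call. DESeq2 found 40% and 3%, with 43 calls in the correct direction and 72 false calls, so most of its calls were false. A gene with 0 liver bud reads is given a fold from a floor of 3 reads over the group, which covers counting error of reads only. Named genes were the 4 markers Afp, Alb, Grhl2 and Lnx1, Pdx1, up to 12 per direction with the largest change among called genes whose average log2 CPM reached 3 and whose sets did not overlap (unnamed gene models, ribosomal protein, histone and mitochondrial genes left out), and the 4 members of each list with the smallest p, of which some are not reported here. Other genes named were chosen after their values were seen. The members and lists were chosen with earlier results of these data known. Coordinates are from GENCODE vM21, promoters from RefSeq. R 4.3.3 and Python 3.11.15 were used.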

Additional observations from a re-analysis of the deposited data

How the results depend on the processing

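The 102 calls (3 higher and 99 lower in the liver bud) became 463 with DESeq2 (40 and 423) and 587 in the fit of the 4 sets alone (271 and 316). Against a 1.5-fold change 1 gene was higher. RLE scaling gave 106 calls, no filter 86, and thinned cells 134. Leaving out 1 set gave 26 to 61 calls, 0 to 1 of them higher and 26 to 60 lower. The lowest count was without liver bud set 2, and 25 of those 26 were among the 102. Sets left out leave a group with 1 set, which is then assumed to vary like the other groups. DESeq2 called 102 of the 102 genes and the fit of the 4 sets 86.

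With the set number as a replicate block 92 genes were called (4 higher and 88 lower). Deviations of same-numbered sets correlated at 0.12 between liver bud and Liv2+, 0.16 between liver bud and Liv2- and 0.37 between Liv2+ and Liv2- sets. Each rests on only 2 numbers and the labels do not say that a number is shared, so whether the sets are paired is not settled.

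Differences in the share of cells, liver bud minus Liv2+ in percentage points, depended on the detection limit. At 20 or more thinned reads they were 3.70 for Afp, 66.7 for Alb, -14.8 for Grhl2 and -1.85 for Lnx1, beside 0, 51.9, -57.4 and -51.9 at 2 reads. For Lnx1 the difference was -53.7 at 1 thinned read and at 10 CPM without thinning. With 1 set left out the differences ranged from 45.9 to 64.7 for Alb, from -62.2 to -47.1 for Grhl2 and from -52.9 to -51.4 for Lnx1, and stayed at 0 for Afp.

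Log2 fold changes of genes that changed direction, or came to 0, all had an adjusted p of 1 there, and the cause was not tested. With 1 set left out, the fold changes ranged from -0.020 to 1.12 for Lnx2, from -0.18 to 0.34 for Numb, from -5.80 to 2.28 for Postn, from -4.97 to 11.95 for Gcg, from -0.071 to 0.56 for Mcm2, from -0.055 to 0.48 for Mcm5 and from -0.35 to 0.64 for Aurka. Numb was below 0 without liver bud set 1 (-0.18) and without Liv2+ set 2 (-0.04). They ranged up to 0 from -5.78 for Mnx1, -6.62 for Ovol2, -4.59 for Myl4, -6.20 for Cdx2, -5.21 for Pitx1 and -5.97 for Gli2, and down to 0 from 7.43 for Krt23, 4.11 for Csf1r, 3.19 for C1qa and 3.13 for Neurod1. With thinned cells Csf1r and Neurod1 were 0. The 2 sets of each group limit the precision: on simulated data edgeR found 0% and DESeq2 3% of 2-fold changes. For a gene absent from the liver bud reads, the floor of 3 reads covers counting error only.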

Other observations

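Lists of imprinted growth, iron and haem, stress, Hippo and TGF-beta target and mesenchymal transition genes (10, 13, 11, 9 and 9 tested) had 0 calls each by edgeR's quasi-likelihood test. Of these lists 1 imprinted gene was higher and 1 lower at an unadjusted p under 0.05, 3 iron genes were higher, 1 stress gene and 3 Hippo and TGF-beta target genes were lower, and 1 mesenchymal transition gene was higher. DESeq2 called 2 of them, both Hippo and TGF-beta target genes and both lower. The fit of the 4 sets called 5 higher (Igf2r, Trf, Tgfbr3, Zeb1 and Cdh2) and 3 lower (Peg3, Mest and Vim). Among imprinted genes Igf2r, which clears insulin-like growth factor 2, was at 446 and 373 CPM in liver bud and 145 and 142 CPM in Liv2+ sets (log2 fold change 1.51, SE 0.56, adjusted p = 0.407, and 0.0161 in the fit of the 4 sets), and Peg3, a zinc finger gene, at 757 and 564 against 1480 and 1284 CPM (-1.07, SE 0.31, adjusted p = 0.151 and 0.0417). Igf2 was at 1639 and 1067 CPM in liver bud and 1457 and 1568 CPM in Liv2+ sets, which overlapped.

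Gcg, the glucagon gene, was found outside the endocrine cells of the series at levels that differed between single sets. In liver bud set 2 the median was 76.6 CPM, against 0 in set 1. Medians were 74.4 and 80.2 CPM in ventral Pdx1-high sets 5 and 6, 63.0 and 64.7 CPM in ventral Pdx1-low sets 5 and 6 (sorted without Liv2), and 53.9 CPM in the E15.5 liver set (Pdx1-Cre, ROSA26-tdTomato+), while ventral Pdx1-high sets 1 to 4 had medians of 5.16 to 9.86 CPM. Liv2+ set 2 held Gcg reads in 7 of 17 cells, at 3.63 CPM or less, and Liv2+ set 1 in 0 of 37. The labels name no plate or run that these sets share, and the source of the reads was not tested.

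Of the 59 Liv2- cells of the same region, 9 had Alb without Sox17, 11 had both, 35 had Sox17 without Alb and 4 had neither, and at 100 CPM or more the counts were 7, 1, 38 and 13. A Liv2- cell held a median of 15 of the 44 plasma protein genes and 40 of the 62 epithelial genes.

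Flt1, an endothelial receptor, was at 2.43 and 0.0778 CPM in liver bud and 42.7 and 86.1 CPM in Liv2+ sets (adjusted p = 0.379 by edgeR's quasi-likelihood test, 0.0495 in the fit of the 4 sets). In the liver bud 29 of its 30 reads came from 1 cell, while 33 of 54 Liv2+ cells held reads.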
